A study of Mus musculus with 10 samples.

Results

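The interferon response genes described here were 39 genes that are known to be switched on when cells receive an interferon signal. They were selected on symbol, as a group, with their UMI values in these libraries already known, so every count of members below describes these libraries and is not independent evidence that the group moved. All 39 were listed in every library, among 27998 genes at E16.5 and 32285 genes at E15.5 and E17.5. They were followed in mouse back skin profiled by single-cell RNA-seq in 10 libraries: 2 controls and 2 MOF cKO at E15.5 (E stands for embryonic day), 2 of each again at E16.5, and 1 control beside 1 QPC cKO at E17.5. The labels give the groups as Control, MOFfl/fl/K14Cre and QPCfl/fl/K14Cre, and the study's methods describe a mixed C57Bl/6J and CD-1 background with littermates as controls. MOF, encoded by Kat8, is a histone H4 lysine acetyltransferase, and QPC is a subunit of mitochondrial complex III encoded by Uqcrq. Both floxed genes were deleted with Krt14-Cre, a driver that is active in the epithelium, so fibroblasts, endothelial cells and macrophages of these embryos were not its target. The study describes the epithelium of E15.5 MOF cKO 6 as mosaic, that is, still holding cells with MOF. The E16.5 libraries were made with an earlier 3' chemistry than the E15.5 and E17.5 libraries, so stage and chemistry cannot be told apart. The study's methods describe 2 pairs of control and MOF cKO samples at each of these stages, and the p-values measure the spread between these libraries.

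Interferons are secreted proteins that bind receptors on nearly every cell type, including keratinocytes, fibroblasts, endothelial cells and macrophages. Type I and type III interferons act through JAK kinases and ISGF3, a complex with Stat2 and Irf9 among its subunits that binds the interferon-stimulated response element (ISRE) in promoters, while interferon gamma has a receptor of its own and strongly induces the guanylate-binding proteins, the immunoproteasome and MHC class I. The induced proteins block viral replication, sense foreign nucleic acid, amplify or damp the signal, and present antigen.

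Promoters of 4 members are printed because they show both sides of one comparison, an ISRE core that was present or absent in front of genes with high values in the same libraries. Irf7, the transcription factor that amplifies type I interferon production, and Oasl2, a 2'-5' oligoadenylate synthetase-like protein, passed the test in 3 stage and cell-type comparisons each and held no match. Isg15, a ubiquitin-like protein attached to other proteins, and Ifit1, a cytoplasmic protein that binds viral RNA, held matches and were chosen after their values were seen. Isg15 also passed the test in 3 of these comparisons, and Ifit1 in 2. Each line gives the 250 bases before the RefSeq transcription start (GRCm38.p6), 5' to 3' on the gene's strand, and capitals mark matches to the motif GAAANNGAAA on either strand. The windows lie at chr4:156200819-156201068 for Isg15 (minus strand), chr19:34640639-34640888 for Ifit1 (plus strand), chr5:114896684-114896933 for Oasl2 (plus strand) and chr7:141266425-141266674 for Irf7 (minus strand).
Isg15: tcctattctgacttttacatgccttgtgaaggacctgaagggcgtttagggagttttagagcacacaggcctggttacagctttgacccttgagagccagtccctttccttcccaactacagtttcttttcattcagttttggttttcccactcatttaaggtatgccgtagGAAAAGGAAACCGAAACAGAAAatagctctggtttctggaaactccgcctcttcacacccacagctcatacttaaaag
Ifit1: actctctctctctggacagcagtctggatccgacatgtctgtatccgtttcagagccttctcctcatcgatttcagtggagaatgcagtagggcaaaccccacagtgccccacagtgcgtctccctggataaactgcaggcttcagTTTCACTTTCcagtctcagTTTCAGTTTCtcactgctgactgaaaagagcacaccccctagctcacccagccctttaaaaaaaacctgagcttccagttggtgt
Oasl2: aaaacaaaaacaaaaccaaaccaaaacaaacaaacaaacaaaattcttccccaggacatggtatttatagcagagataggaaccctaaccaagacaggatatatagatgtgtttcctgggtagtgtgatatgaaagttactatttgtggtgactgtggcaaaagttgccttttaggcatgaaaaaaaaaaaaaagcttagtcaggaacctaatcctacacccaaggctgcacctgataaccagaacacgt
Irf7: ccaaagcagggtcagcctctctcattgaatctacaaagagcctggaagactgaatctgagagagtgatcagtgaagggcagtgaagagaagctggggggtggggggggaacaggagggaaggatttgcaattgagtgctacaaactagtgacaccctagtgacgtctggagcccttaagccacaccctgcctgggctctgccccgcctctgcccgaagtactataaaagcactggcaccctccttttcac

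The matches of Isg15 overlapped and began 78, 72 and 66 bases before the start, and those of Ifit1 began 104 and 85 bases before it on the opposite strand. RefSeq promoter windows were found for 31 of the 39 members. Of these, 13 (41.9%) held at least 1 match within 250 bases before and 50 bases after the start: Isg15, Ifit1, Ifit3, Oas1a, Oas3, Stat2, Ifih1, Bst2, Rsad2, Gbp2, Gbp3, Gbp7 and B2m. Of all genes with a window 3.99% held a match, and among all 32851 windows 3.44%. Members with and without a match were both among those called in E16.5 fibroblasts, 9 of 12 tested with a match and 14 of 18 tested without one, beside 2.43% of all genes higher and none of these calls left without control 2. A match is a description of letters and not a measured binding site. Usp18, Zbp1, Rtp4, Ifi27l2a, Parp9, Parp14, Dhx58 and Oas2 were not matched to the promoter table.

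Libraries held between 13609345 and 203392303 UMIs (unique molecular identifiers, each standing for 1 captured RNA molecule) and between 716 and 10653 kept cells, with medians of 9600 to 22340 UMIs per cell. Cells were assigned to 4 gates by marker UMIs: epithelial by Krt5 and Krt14, fibroblast by Col1a1 and Col3a1, endothelial by Pecam1, Cdh5 and Kdr, and macrophage by C1qa, C1qb and Csf1r. The gates held 30 to 3069 epithelial, 518 to 7389 fibroblast, 11 to 255 endothelial and 33 to 260 macrophage cells per library. The marker list of each gate was highest in that gate in every library. Each list includes the genes that define its gate, so this order was largely fixed by the gating and does not check it. In the E17.5 control epithelial gate fibroblast markers (19194 UPM) exceeded epithelial markers (13873 UPM). Libraries shared between 0 and 36 cell barcodes, at most 0.354% of the smaller library. Kat8 in the epithelial gate was measured at 13.0 and 14.0 UPM (UMIs per 1000000 UMIs of the gate) in E15.5 controls against 13.0 in MOF cKO 5 and 10.0 in MOF cKO 6. At E16.5 it was 17.6 and 14.8 in controls against 8.66 and 3.75 in MOF cKO, the latter from 5 and 3 UMIs. Kat8 was also lower in both MOF cKO libraries than in both controls in each gate that Krt14-Cre does not target, whereas the E15.5 epithelial groups overlapped. In fibroblasts it was 9.18 and 9.62 against 6.83 and 5.98 UPM at E15.5 and 9.60 and 8.23 against 2.81 and 5.39 UPM at E16.5. In E15.5 endothelial cells it was 12.1 and 12.7 against 4.53 and 2.88 UPM, and in E15.5 macrophages 11.3 and 5.47 against 4.37 and 4.66 UPM. The E16.5 endothelial and macrophage values rested on 0 to 9 UMIs per library. Uqcrq in the E17.5 epithelial gate was 106 UPM in the control and 43.9 in QPC cKO. Where the deleted parts lie relative to the 3' tags is not given in the sources used here, so these values do not check the labels.

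In control skin the members differed widely between cell types before any deletion was considered. The UMIs of 36 members, leaving out the abundant MHC class I genes B2m, H2-K1 and H2-D1, summed to 1404 and 1330 UPM in E15.5 control macrophages. The sum was 496 and 558 in endothelial cells, 81.8 and 86.8 in fibroblasts and 54.4 and 55.9 in epithelial cells. The order was kept in the E16.5 controls, at 1619 and 1754, then 804 and 645, then 114 and 79.3, with epithelial cells at 132 and 55.3 overlapping the fibroblast values.

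Against fibroblasts of the same control libraries (edgeR's quasi-likelihood test with library as a block, Benjamini-Hochberg adjusted p below 0.05), 34 of 39 members were higher in macrophages at E15.5 and 31 at E16.5. Of all genes tested 23.9% and 17.1% were higher in those contrasts. Oas1a, which makes the oligoadenylates that activate RNase L, had 21 and 14 UMIs in E15.5 control macrophages against 1 in each fibroblast gate, and 16 and 8 UMIs against 0 at E16.5. The macrophage excess on the log2 scale was 7.25 at E15.5 for Ifi27l2a, an interferon-inducible protein of unsettled function. Ifit2, a partner of Ifit1, was the 1 member lower in macrophages at E15.5 (log2 difference -1.65), beside 25.9% of all genes. In endothelial cells 26 members were higher at E15.5 and 16 at E16.5, beside 19.5% and 9.21% of all genes. Bst2, which tethers budding virus to the membrane, led there with 5.52 and 4.75 on the log2 scale. Ifit2, Ifit3 and Ifi27l2a were lower in endothelial cells at E15.5, beside 20.3% of all genes. Without E15.5 control 2 the higher endothelial members were 16, beside 9.66% of all genes, and without E16.5 control 2 they were 8, beside 3.03%. The 31 macrophage members of E16.5 became 20, beside 12.5%, without control 2.

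Epithelial cells carried fewer members above fibroblasts. At E15.5 Oasl2 (log2 difference 3.32), H2-D1 (2.04), Dtx3l (1.14) and Ifi27l2a (1.05) were higher, beside 24.9% of all genes, and 14 members were lower, beside 29.6%. Without control 3, 2 were higher and 7 lower, beside 12% and 16.6%. The lower members included Ifit3 (-3.71), the secreted glycoprotein Lgals3bp (-3.66), and Gbp2, a guanylate-binding protein, and Ifi44, each with 1 and 0 UMIs in the epithelial gates. At E16.5 H2-D1 (1.88) and Dtx3l (1.39), an ubiquitin ligase that works with Parp9, were higher beside 12.9% of all genes, and Ifit2 (-1.89) and Lgals3bp (-1.83) were lower beside 16.2%. Of these 4 members H2-D1 passed in every fit without a library, and the other calls were lost without control 2 and without either MOF cKO library.

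**Figure D1:**
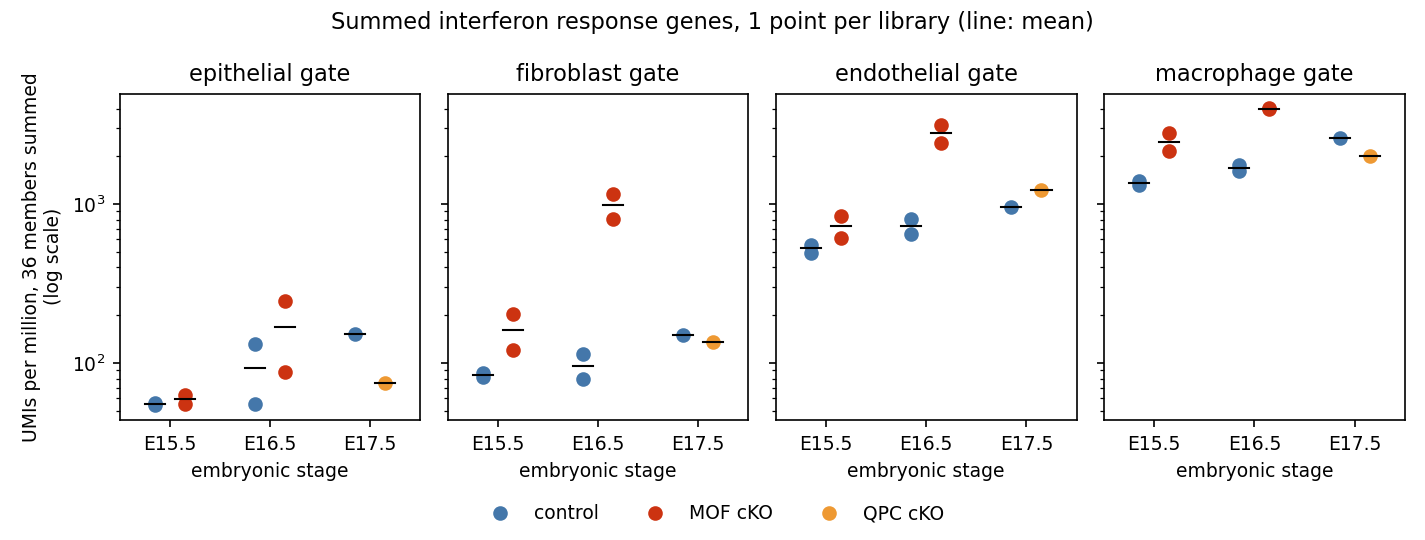
Summed UPM of 36 members (39 without B2m, H2-K1 and H2-D1) on a log axis, 1 point per library, in 4 panels for the epithelial, fibroblast, endothelial and macrophage gates and by stage and group. The E16.5 MOF cKO fibroblast libraries sit at 1163 and 810 against 114 and 79.3 in the controls, while the epithelial groups overlap.

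In E16.5 fibroblasts, which Krt14-Cre does not target, members from every branch of the interferon response were higher in MOF cKO. Of the 37 members tested 28 rose and none fell, beside 2.43% of all genes tested that were higher and 2.21% that were lower. The 36-member sum was 114 and 79.3 UPM in controls and 1163 and 810 UPM in MOF cKO, a ratio of 10.2. The median log2 fold change of the tested members was 3.39, and 36 of 37 were above 0. Oas2 and Oas3 had too few UMIs to be tested. Members near 0 in controls, Oas1a and Zbp1 among them, passed the filter on low counts through MOF cKO alone. Their calls describe these values and are no independent support.

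Isg15 and Usp18, the members listed for the ISG15 system, both rose. Isg15 was measured at 4.45 and 1.33 UPM in the control fibroblasts and at 164 and 93.5 UPM in MOF cKO, without overlap (log2 fold change 5.78 ± 0.57 SE, adjusted p = 0.0243). Usp18, which removes Isg15 from its targets and damps receptor signalling, went from 0.417 and 0.332 to 14.4 and 5.55 UPM (4.82 ± 0.71, adjusted p = 0.0348). Of the 3 IFIT genes only Ifit1 passed, from 3 and 1 UMIs (0.417 and 0.0664 UPM) in controls to 76.2 and 29.5 UPM in MOF cKO (8.19 ± 0.87, adjusted p = 0.0275). Ifit3 was at 2.64 and 1.92 UPM against 28.7 and 7.24 UPM (adjusted p = 0.0771), a pair of MOF cKO values far apart from each other. Ifit2 was at 13.2 and 9.03 UPM against 9.77 and 8.69 UPM and was the only tested member below 0, at -0.12 ± 0.22.

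Among the 2'-5' oligoadenylate synthetases, Oasl2 rose from 1 and 3 UMIs (0.139 and 0.199 UPM) in controls to 35.5 and 21.2 UPM (7.30 ± 0.52, adjusted p = 0.0191). Oas1a had no UMI in either control and 25 and 21 UMIs in MOF cKO. Against a floor of 3 counts over the control group that is at least 17.8-fold higher. Its adjusted p was 0.0495, in a test that it entered only through MOF cKO. Oasl1 did not pass, with 0.139 and 0.133 UPM against 4.44 and 1.29 UPM (adjusted p = 0.0676). Of these 3 tested, 2 synthetases passed, both starting from 0 to 3 control UMIs per library. Irf7 rose from 0.695 and 0.863 to 46.0 and 29.1 UPM (5.63 ± 0.39, adjusted p = 0.0191), and Irf9, a subunit of ISGF3, from 5.29 and 4.18 to 26.8 and 22.1 UPM (2.5 ± 0.21, adjusted p = 0.0243). Stat2, another ISGF3 subunit, was at 6.40 and 4.38 UPM against 14.5 and 10.1 UPM (adjusted p = 0.0655). For each of these 3 factors both controls lay below both MOF cKO libraries, beside 19.4% of all genes with at least 10 UMIs.

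The nucleic acid sensors Ifih1, a helicase for double-stranded RNA, and Zbp1, a sensor of Z-form nucleic acid that triggers cell death, both rose. Ifih1 was at 1.95 and 1.73 UPM in controls and 16.4 and 8.85 UPM in MOF cKO (2.89 ± 0.42, adjusted p = 0.0344). Zbp1 had 0 and 1 UMIs in controls and 113 and 84 UMIs in MOF cKO (adjusted p = 0.0285), a ratio of 229 with a 95% counting interval of 40.6 to 9073. The interval is wide because the control side rests on 1 molecule, and Zbp1 entered the test only through MOF cKO. Dhx58, a regulator of Ifih1, was at 2.78 and 1.19 against 7.25 and 4.35 UPM and did not pass (adjusted p = 0.102). Of 5 other antiviral genes, Bst2 rose from 14.7 and 7.77 to 206 and 177 UPM (4.26 ± 0.29, adjusted p = 0.0191) and the ubiquitin ligase Trim25 from 5.42 and 3.19 to 14.4 and 11.5 UPM (1.76 ± 0.29, adjusted p = 0.0395). Rsad2 (viperin), Cmpk2 and Samd9l did not pass. In Rsad2 control 1, at 2.09 UPM, was level with MOF cKO 2, also at 2.09 UPM.

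All 6 of the other interferon-induced members rose. Ifi27l2a went from 2.23 and 2.59 to 111 and 99.0 UPM (5.52 ± 0.21, adjusted p = 0.00351), and Lgals3bp from 8.21 and 6.84 to 106 and 98.7 UPM (3.90 ± 0.15, adjusted p = 0.00351). These were the members with the smallest adjusted p in the gate, and their MOF cKO libraries lay close together. Rtp4, a chaperone-like transmembrane protein, went from 1.67 and 0.929 to 31.1 and 15.2 UPM (4.36 ± 0.51), and the pro-apoptotic Xaf1 from 2.09 and 0.797 to 16.4 and 15.7 UPM (3.75 ± 0.37). Ifi35 had the smallest change of the 6, from 13.8 and 13.6 to 27.2 and 25.2 UPM (1.05 ± 0.16, adjusted p = 0.0368). Ifi44 had 0 and 2 control UMIs against 27 and 26 (ratio 30.7, 95% counting interval 8.10 to 260). Parp14, an ADP-ribosyltransferase, rose from 1.39 and 0.797 to 19.2 and 12.9 UPM (4.07 ± 0.38) and Dtx3l from 1.95 and 0.797 to 10.1 and 9.18 UPM (3.06 ± 0.39). Parp9, at 2.09 and 0.398 against 10.5 and 6.68 UPM, did not pass (adjusted p = 0.0602).

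The guanylate-binding and antigen presentation members are of kinds that interferon gamma also induces, and all of them rose in these fibroblasts. Each of the 3 guanylate-binding proteins passed, and Gbp7 went from 2.78 and 1.99 to 27.1 and 17.9 UPM (3.39 ± 0.32, adjusted p = 0.0243). Gbp3 went from 0.556 and 0.465 to 8.58 and 5.47 UPM (3.88 ± 0.45). So did each of the 6 antigen presentation genes. The immunoproteasome subunit Psmb8 went from 3.20 and 2.79 to 39.7 and 23.6 UPM (3.53 ± 0.35), and the peptide transporter Tap1 from 8.76 and 7.24 to 31.5 and 19.2 UPM (1.79 ± 0.31). B2m, the light chain of MHC class I, was already at 179 and 174 UPM in controls and reached 507 and 522 UPM (1.67 ± 0.14, adjusted p = 0.0243). H2-D1, an MHC class I heavy chain, went from 20.3 and 13.1 to 76.5 and 105 UPM (2.59 ± 0.21). H2-K1, the other classical heavy chain listed, had the smallest margin of the group, from 32.4 and 18.7 to 47.2 and 57.6 UPM (adjusted p = 0.0486).

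Leaving out control 2, the larger of the control libraries, ended every call in this gate (0 of 28), while leaving out any other library left between 18 and 23 members called, beside 0% and 0.939% to 1.32% of all genes higher. A group left with 1 library was assumed to vary like the other group in these fits and in all others without a library. Macrophage markers in the fibroblast gate summed to 11.8 and 12.8 UPM in controls and 34.3 and 143 UPM in MOF cKO, and in cells that passed only the fibroblast gate to 11.6 and 7.89 against 31.8 and 41.2 UPM, where the 36-member ratio was 10.1. Neutrophil markers summed to 1.11 and 1.39 against 30.8 and 9.90 UPM, and endothelial markers to 7.37 and 9.62 against 26.5 and 20.8 UPM. Pericyte markers summed to 76.8 and 87.6 against 130 and 132 UPM, and myocyte markers to 17.4 and 9.96 against 34.5 and 54.3 UPM. Epithelial markers went the other way, at 542 and 320 against 132 and 180 UPM. The part of these cells in the result was not tested.

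**Figure D2:**
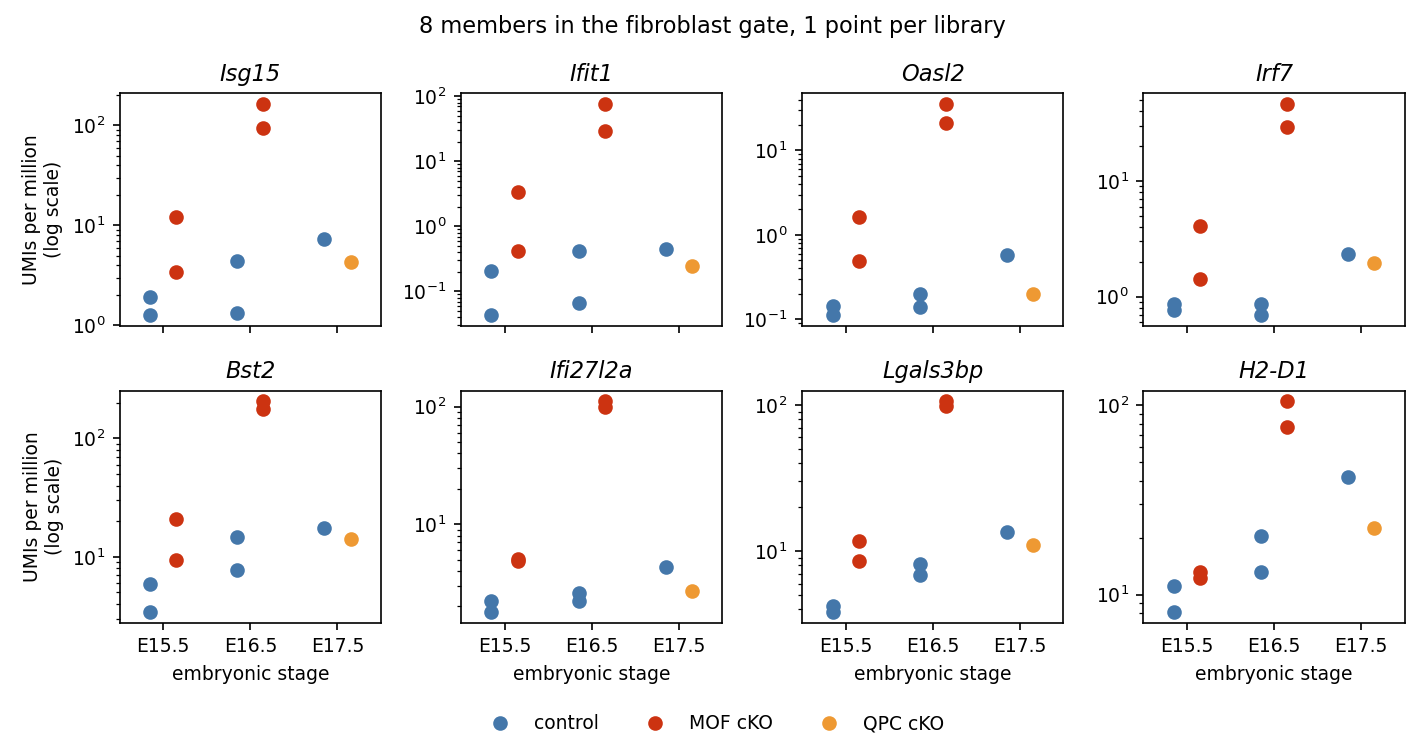
UPM of 8 members in the fibroblast gate, 1 point per library on log axes with a scale for each panel, by stage and group. At E16.5 both MOF cKO libraries lie above both controls in every panel, beside 19.4% of all genes with at least 10 UMIs. For Ifi27l2a the values are 111 and 99.0 against 2.23 and 2.59 UPM. At E15.5 the MOF cKO 5 value exceeds the MOF cKO 6 value for Isg15 (12.1 against 3.40 UPM).

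The members' UMIs were spread over most E16.5 MOF cKO fibroblasts and were not held by a few cells alone. Per 10000 UMIs of a cell, the median fibroblast held 0.856 and 0.393 UMIs of the 36 members in controls and 4.84 and 4.22 in MOF cKO. The share of fibroblasts with none of them was 37.3% and 49.8% in controls and 6.37% and 8.17% in MOF cKO. These shares are at full depth, with medians of 10801 and 9755 UMIs per control cell and 12467 and 11185 per MOF cKO cell. The upper end moved further still, with the 90th percentile at 2.44 and 2.17 against 23.4 and 16.51, and the top 10% of MOF cKO cells held 54.3% and 49.4% of the members' UMIs against 41.2% and 40.3% in controls. After thinning every cell to 4000 UMIs, an Isg15 UMI was present in 1.01% and 0.383% of control and 19.3% and 14.8% of MOF cKO fibroblasts (1.83%, 0.977%, 31.5% and 24.6% without thinning). In the epithelial gate of the same libraries the thinned shares were 1.06% and 0.239% against 1.03% and 1.17%, so the control fibroblast share was at the level seen there and the MOF cKO share was far above it. The MOF cKO epithelial cells had the greater median depths, 16299 and 19663 UMIs against 12467 and 11185 in fibroblasts.

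**Figure D3:**
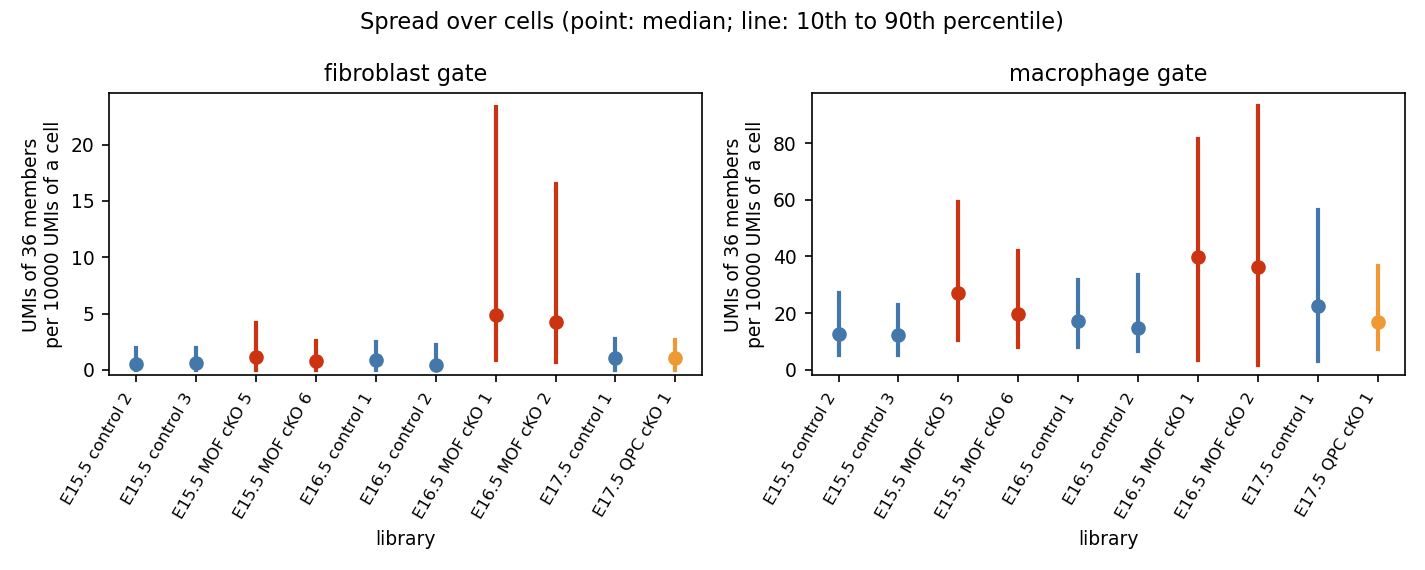
UMIs of the 36 members per 10000 UMIs of a cell, in the fibroblast and macrophage gates, with the median as a point and the 10th to 90th percentile of cells as a line for each library. At E16.5 the MOF cKO fibroblast medians (4.84 and 4.22) lie above the 90th percentiles of the controls (2.44 and 2.17).

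Endothelial cells at E16.5 also held many members at higher levels in MOF cKO. Of 26 members tested 19 rose, none fell, and all 26 were above 0, beside 4.4% of all genes higher and 0.548% lower. The 36-member sum was 804 and 645 UPM in controls and 2435 and 3160 UPM in MOF cKO (ratio 3.86), with a median log2 fold change of 2.24. The gate was small, with 11 and 60 control cells and 25 and 26 MOF cKO cells, so control 1 contributed only 2 UMIs of Isg15.

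Irf7 had the smallest adjusted p of the members, with 13.7 and 5.50 UPM in controls against 114 and 149 UPM (log2 fold change 4.37 ± 0.43 SE, adjusted p = 0.000843). Isg15 went from 13.7 and 45.1 to 224 and 171 UPM (2.56 ± 0.40, adjusted p = 0.00636). Ifit1 had no UMI in the control cells and 22 UMIs in each MOF cKO library (adjusted p = 0.00284, at least 15.4-fold higher), and Zbp1 likewise had none against 21 and 14 UMIs (adjusted p = 0.00646, at least 12.3-fold higher). Both genes had UMIs in this gate only with MOF cKO, at this depth, and passed the filter on low counts through MOF cKO alone. Ifit1 was also called in cells that passed the endothelial gate alone, and Zbp1 was not. The part of macrophage RNA in this gate, whose markers are given below, was not tested. Oasl2 rose from 13.7 and 3.30 to 37.9 and 55.6 UPM (3.34 ± 0.59) and Rsad2, which did not pass in fibroblasts, from 6.87 and 4.40 to 55.9 and 51.6 UPM (3.58 ± 0.51, adjusted p = 0.00416). Bst2 started high, at 330 and 291 UPM, and reached 914 and 1021 UPM (1.85 ± 0.26, adjusted p = 0.00384). Ifi27l2a was uneven between the MOF cKO libraries, at 0 and 12.1 UPM in controls against 79.8 and 447 UPM (4.82 ± 0.89, adjusted p = 0.0134).

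All 6 antigen presentation genes rose in the endothelial gate. H2-K1 went from 41.2 and 26.4 to 206 and 369 UPM (3.42 ± 0.38, adjusted p = 0.00141), B2m from 509 and 528 to 1647 and 2518 UPM (2.19 ± 0.29, adjusted p = 0.00305), and H2-D1 from 241 and 200 to 505 and 775 UPM (1.75 ± 0.29). Psmb8 went from 55.0 and 20.9 to 118 and 157 UPM (2.44 ± 0.40), with Psmb9 and Tap1 beside it. The remaining called members were Lgals3bp, Rtp4, Parp9, Gbp7 and Ifi44, the last with 0 and 3 control UMIs against 17 and 15 (ratio 11.2, 95% counting interval 3.51 to 57.2).

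Macrophage markers stood beside these endothelial values. They summed to 20.6 and 8.79 UPM in the control endothelial gate and to 1493 and 3563 UPM in MOF cKO, and 9 of 25 and 11 of 26 MOF cKO endothelial cells passed a second gate, against 3 of 11 and 10 of 60 in controls. Among cells that passed the endothelial gate alone, the macrophage markers were at 39.1 and 6.63 UPM in controls and 36.1 and 36.6 UPM in MOF cKO. In those cells the 36-member sum was 757 and 728 against 2275 and 2363 UPM (ratio 3.13), and 7 of 17 members were called, beside 0.836% of all genes higher: Isg15, Ifit1, Irf7, Bst2, Rsad2, Ifi44 and H2-K1.

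In E16.5 macrophages no member of the 33 tested was called, as was the case for every gene tested (0% higher and 0% lower). At an unadjusted p below 0.05, 21 members were higher and none lower, beside 8.82% and 5.83% of all genes. All 33 were above 0, with a median log2 fold change of 1.16, and the 36-member sum was 1619 and 1754 UPM in controls against 4010 and 3970 UPM in MOF cKO. Both MOF cKO libraries exceeded both controls for 34 of 38 members with at least 10 UMIs, which held for 25.4% of all such genes. DESeq2 called 5 of 33 members higher, beside 1.62% of all genes. In cells that passed only this gate edgeR called 6 of 33, beside 1.64%, and with no filter on low counts 9 of 39, beside 1.78%. Irf7 came closest, at 18.2 and 17 UPM against 215 and 235 UPM (3.67 ± 0.27, adjusted p = 0.0743). Isg15 was at 22.8 and 53.3 against 299 and 172 UPM, and Zbp1 at 18.2 and 14.9 against 117 and 84.2 UPM. Ifi27l2a, already abundant at 303 and 479 UPM, was at 934 and 1122 UPM. Psmb8 (269 and 202 against 287 and 293 UPM) and Gbp7 (56.9 and 95.9 against 82.2 and 81.6 UPM) were the closest of the named members, and the Gbp7 groups overlapped. The gate held 33 and 45 control cells, and 56 of 119 cells of MOF cKO 2 and 14 of 59 of MOF cKO 1 passed a second gate. Neutrophil markers summed to 2.28 and 0 UPM in controls against 2167 and 66.7 UPM, a list of 5 genes of which 2 were at 0 in each MOF cKO library. Epithelial markers summed to 535 and 358 against 2275 and 517 UPM, highest in MOF cKO 1, which also had the most neutrophil marker UPM. Fibroblast markers summed to 866 and 1624 against 2846 and 6690 UPM and endothelial markers to 2.28 and 8.52 against 40.7 and 54.8 UPM. The part of these cells in the members' values was not tested.

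The epithelial gate, the target of the deletion, showed no called member at E16.5. None of 11 tested members passed, beside 4.68% of all genes higher and 1.14% lower. Of the 11, 3 were higher and none lower at an unadjusted p below 0.05, beside 14.6% and 13.5% of all genes. MOF cKO contributed only 30 and 39 epithelial cells, so most members could not be tested. DESeq2 called 1 of 9 members higher, beside 7.1% of all genes, and edgeR with no filter called 4 of 37, beside 5.8%. The 36-member sum was 132 and 55.3 UPM in controls and 88.3 and 247 UPM in MOF cKO, and the groups overlapped. In cells of exactly 1 gate it was 93.8 and 53.0 against 79.5 and 112 UPM. Macrophage markers summed to 194 and 7.00 against 27.7 and 245 UPM in this gate, and to 13.9 and 7.07 against 28.7 and 36.8 UPM in cells of exactly 1 gate. Fibroblast markers summed to 5492 and 877 against 478 and 696 UPM. Myocyte markers summed to 150 and 2.64 against 3.46 and 13.7 UPM, and control 1 was the highest in both lists. No cell can pass both the epithelial and the fibroblast gate, so cells of exactly 1 gate still include those with fibroblast markers. Isg15 was at 6.49 and 1.06 UPM in controls and at 3.46 and 2.5 UPM in MOF cKO, where each value is 2 UMIs. Bst2, at 17.9 and 4.09 against 20.8 and 48.7 UPM, had an adjusted p of 0.0886. Lgals3bp was at 5.19 and 0.396 against 10.4 and 16.2 UPM (adjusted p = 0.118) and H2-D1 at 68.0 and 53.5 against 43.3 and 92.5 UPM (adjusted p = 0.21). In MOF cKO 1 the values of B2m (41.5 UPM), H2-D1 and Ifi27l2a (1.73 UPM) lay below both controls, and in MOF cKO 2 (221, 92.5 and 87.5 UPM) above both. Neutrophil markers in this gate summed to 2.08 and 5.41 UPM in controls and 3876 and 1852 UPM in MOF cKO, through S100a8 and S100a9, with 3 and 2 of 5 markers at 0. Their part in the members' values was not tested.

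The fold change itself differed between E16.5 epithelial cells and fibroblasts for 4 members. In a fit of all gates with library as a block, the genotype effect in epithelial cells minus that in fibroblasts was -5.26 on the log2 scale for Isg15 (adjusted p = 0.029) and -3.09 for Irf7 (adjusted p = 0.0362). It was -2.37 for Tap1 (adjusted p = 0.0438) and -1.94 for H2-D1 (adjusted p = 0.00674). Isg15 and Irf7 had too few UMIs for a test in the epithelial gate alone, so they entered this fit through other gates. The MOF cKO epithelial side of Isg15 was 2 UMIs in each library. Of all genes 2.72% had a lower effect in epithelial cells. Without MOF cKO 1 none of the 4 passed. For the endothelial and macrophage effects against the fibroblast effect, no member passed, and 0% of all genes had a lower effect in either contrast, while in cells of exactly 1 gate 2 and 8 of 39 members had a lower effect there than in fibroblasts, beside 0.039% and 0.332% of all genes.

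**Figure D4:**
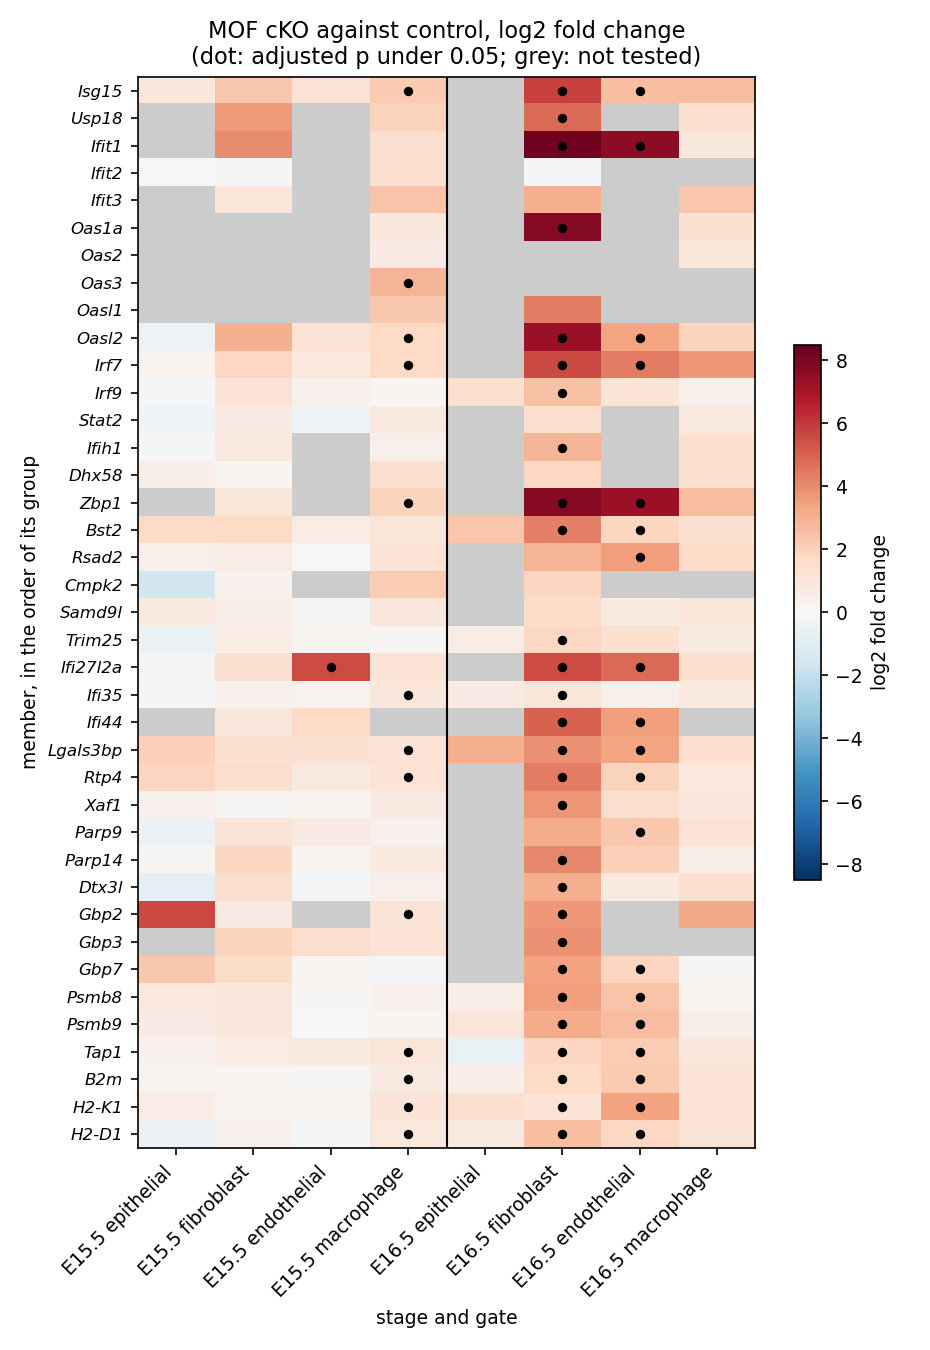
Log2 fold change of MOF cKO against control for the 39 members (rows) in 4 gates at E15.5 and E16.5 (columns), with dots where the adjusted p was below 0.05 and grey where a member was not tested. The E16.5 fibroblast column holds 28 dots, the E16.5 endothelial column 19 and the E15.5 macrophage column 13, and the epithelial columns hold none.

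At E15.5 the members were called mainly in macrophages, where 13 of 38 tested rose and none fell, beside 0.966% of all genes higher and 0.307% lower. The 36-member sum was 1404 and 1330 UPM in controls against 2799 UPM in MOF cKO 5 and 2155 UPM in MOF cKO 6, and 37 of 38 tested members were above 0 with a median log2 fold change of 1.05. Isg15 went from 18.7 and 12.4 to 82.3 and 64.1 UPM (log2 fold change 2.20 ± 0.23 SE, adjusted p = 0.00499) and Irf7 from 14.6 and 13.4 to 51.2 and 39.6 UPM (1.68 ± 0.21, adjusted p = 0.00973). Oasl2 went from 12.4 and 12.9 to 47.6 and 34.7 UPM (1.70 ± 0.23, adjusted p = 0.014), and Zbp1 from 8.41 and 11.4 to 42.2 and 30.3 UPM (1.89 ± 0.26, adjusted p = 0.0155). In each of these both MOF cKO libraries lay above both controls, including MOF cKO 6 with its mosaic epithelium. The same held for 21.9% of all genes with at least 10 UMIs. Oas3 had the largest fold change of the called members, from 2 and 3 UMIs in controls to 37 and 30 (2.87 ± 0.52, adjusted p = 0.0386).

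The MHC class I genes moved by less but with little spread. H2-K1 went from 171 and 208 to 379 and 412 UPM (1.07 ± 0.11, adjusted p = 0.00499), H2-D1 from 331 and 332 to 596 and 626 UPM (0.88 ± 0.09, adjusted p = 0.00531) and B2m from 626 and 654 to 969.5 and 1204 UPM (0.76 ± 0.11, adjusted p = 0.0161). Tap1, Lgals3bp, Rtp4, Ifi35 and Gbp2 were the other called members, with Lgals3bp going from 39.1 and 29.8 to 79.8 and 82.7 UPM. Ifi27l2a (343 and 237 against 798 and 510 UPM) and Bst2 (142 and 227 against 435 and 305 UPM) had adjusted p values of 0.0558 and 0.0639. Gbp7, at 152 and 160.2 against 140.0 and 136 UPM, was the only tested member below 0 (-0.18 ± 0.12). Leaving out control 3 left 2 members called, control 2 left 6, MOF cKO 5 left 9 and MOF cKO 6 left 20, and a stricter mitochondrial limit of 5% left 4, beside 0.139%, 0.496%, 0.628%, 1.4% and 0.388% of all genes higher in the same fits. Neutrophil markers in this gate summed to 0.732 and 1.99 UPM in controls against 6.55 and 127 UPM, with 4 of 5 at 0 in each control, 3 in MOF cKO 5 and none in MOF cKO 6. Myocyte markers summed to 5.12 and 6.96 against 58.2 and 16.3 UPM, melanocyte markers to 6.22 and 22.9 against 40.0 and 57.6 UPM, and pericyte markers to 5.49 and 6.96 against 16.3 and 14.0 UPM. The part of these cells in the result was not tested, and in cells of exactly 1 gate 19 of 38 members were called higher, beside 1.7% of all genes.

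In E15.5 fibroblasts no member of 35 tested was called, and neither was any other gene (0% higher and 0% lower). With an unadjusted p below 0.05 there were 20 members, all higher, beside 7.6% of all genes higher and 8% lower. All 35 were above 0, with a median log2 fold change of 0.99. Both MOF cKO libraries exceeded both controls for 33 of 39 members, beside 25.6% of all genes. MOF cKO 5 exceeded MOF cKO 6 for 36 of 39 members in this gate. In the E15.5 epithelial gate it did so for 10, and MOF cKO 6 was the higher for 28. The same order over all genes is not given here. The 36-member sum in fibroblasts was 81.8 and 86.8 UPM in controls, 203 UPM in MOF cKO 5 and 120.2 UPM in MOF cKO 6. Isg15 was at 1.27 and 1.93 UPM in controls, 12.1 UPM in MOF cKO 5 and 3.40 UPM in MOF cKO 6 (2.26 ± 0.64, adjusted p = 0.23). Irf7 was at 0.860 and 0.769 UPM against 4.05 and 1.42 UPM (1.74 ± 0.54, adjusted p = 0.242), and Ifit1 at 0.206 and 0.0435 UPM against 3.38 and 0.413 UPM. Lgals3bp, at 3.81 and 4.21 against 11.7 and 8.56 UPM, and Ifi27l2a, at 2.22 and 1.78 against 4.83 and 5.06 UPM, were the most even (both adjusted p = 0.181, the smallest of the gate). Without MOF cKO 6 the test called 11 of 37 members higher, beside 0.431% of all genes, and with no filter on low counts 8 of 39, beside 0.61%. DESeq2 called 5 of the 25 members to which it gave an adjusted p, namely Irf7, Irf9, Ifi27l2a, Lgals3bp and Parp14, beside 1.89% of all genes higher. Neutrophil markers in this gate summed to 0.243 and 0.261 UPM in controls against 18.8 UPM in MOF cKO 5 and 0.971 UPM in MOF cKO 6, and their part in these values was not tested.

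The E15.5 endothelial gate gave 1 called member of 26 tested, beside 0.077% of all genes higher and 0.0193% lower. At an unadjusted p below 0.05, 8 members were higher and none lower, beside 5.22% and 4.66% of all genes. Ifi27l2a had 1 and 0 UMIs in controls against 59 and 42 in MOF cKO (adjusted p = 0.0206, ratio 52.8 with a 95% counting interval of 9.26 to 2104), a call that was lost without either MOF cKO library, in cells of exactly 1 gate and with DESeq2. Ifi27l2a passed the filter on low counts through MOF cKO alone. Isg15 was at 10.7 and 9.66 UPM against 21.9 and 24.0 UPM (1.21 ± 0.21, adjusted p = 0.105). Bst2, at 156 and 269 against 418 and 225 UPM, overlapped between the groups. Fibroblast markers in this gate summed to 790 and 746 UPM in controls against 1498 and 1833 UPM, and myocyte markers to 4.46 and 3.51 against 25.2 and 21.8 UPM. Macrophage markers, at 29.5 and 201 against 65.5 and 248 UPM, overlapped. A second gate was passed by 13 of 125 and 13 of 115 control cells and 41 of 255 and 38 of 152 MOF cKO cells. The part of these cells in the result was not tested.

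In E15.5 epithelial cells, again the compartment of the deletion but with 1061 and 1648 MOF cKO cells, none of 29 members was called (0% of all genes in either direction). At an unadjusted p below 0.05, 6 were higher and 2 lower, beside 5.75% and 3.55% of all genes. The 36-member sum was 54.4 and 55.9 UPM in controls against 55.0 and 63.4 UPM in MOF cKO. Of 34 members with at least 10 UMIs, 15 had both MOF cKO libraries above both controls and 8 had both below, beside 19% and 30.4% of all genes. Isg15 was at 0.947 and 1.02 UPM against 1.67 and 1.83 UPM (0.95 ± 0.31) and Lgals3bp at 0.198 and 0.365 against 1.06 and 1.07 UPM (2.01), both with an adjusted p of 0.503. H2-D1, at 38.3 and 33.6 against 20.4 and 26.3 UPM (-0.50 ± 0.13, adjusted p = 0.503), and Oasl2, at 1.17 and 1.3 against 0.749 and 0.957 UPM (-0.41), lay on the other side. Without the mosaic MOF cKO 6, 6 of 28 members were called higher and 3 lower, beside 20.8% and 24.7% of all genes in that fit.

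The genotype effect was larger at E16.5 than at E15.5 for 6 of 37 members in fibroblasts, beside 0.423% of all genes, in a test of the difference itself. Ifi27l2a had the largest difference there (4.20 on the log2 scale, adjusted p = 0.00382), followed by Xaf1 (3.64), Gbp2 (3.0), Lgals3bp (2.55), H2-D1 (2.19) and B2m (1.41). In endothelial cells it was larger for 7 of 36 members, beside 0.614% of all genes, namely Rsad2 (3.57), Irf7 (3.56), H2-K1 (3.28), Psmb8 (2.39), B2m (2.08), H2-D1 (1.93) and Stat2. Stat2 had 0 and 2 control UMIs against 8 and 16 at E16.5, too few for a test of that stage alone, and 32 and 36 against 69 and 32 at E15.5. No member passed among 32 in epithelial cells and 38 in macrophages, beside 0.103% and 0.00965% of all genes. No fibroblast member passed without E15.5 MOF cKO 6, and no endothelial member without E16.5 control 2. Stage, chemistry and the mosaic E15.5 epithelium cannot be told apart here.

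Beyond the 39 members, 97 other genes of the pathway were followed as lists. None of the 14 listed interferon genes reached a testable level in any gate at E15.5 or E16.5. The listed Ifna genes, the type III genes Ifnl2 and Ifnl3, and Ifnb1 were at 0 in all kept cells of these 8 libraries. For Ifnb1 this allows a share of kept cells with a UMI of up to 0.419% in E16.5 MOF cKO 1 and 0.0282% in E15.5 MOF cKO 6. Within the E16.5 macrophage gate it allows up to 5.08% and 2.52% in MOF cKO 1 and 2, and 9.09% and 6.67% in controls 1 and 2. Ifng, the interferon of T and NK cells, had 3 UMIs in 2 cells of E16.5 MOF cKO 2, none in the other E16.5 libraries, and 7 and 9 UMIs in E15.5 controls against 6 and 31 in MOF cKO. The keratinocyte interferon Ifnk had 17 UMIs in 1 E15.5 control and 4 and 15 in MOF cKO. The receptor genes Ifnar1, Ifnar2, Ifngr1, Ifngr2 and Il10rb were detected and none was called. In E16.5 fibroblasts Ifnar2, a subunit of the type I receptor, was at 43.4 and 34.9 against 55.2 and 53.3 UPM (adjusted p = 0.0619).

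In E16.5 fibroblasts 28 of 66 tested pathway genes were higher and none lower, beside 2.43% and 2.21% of all genes. The called genes included 2 of 6 IRF factors, 2 of 6 tested sensors and adaptors, 2 of 5 inhibitors, 9 of 23 other type I targets and 11 of 16 gamma-inducible and antigen presentation genes. Irf1, a factor typical of the gamma response, went from 65.1 and 31.5 to 201 and 167 UPM (2.10 ± 0.31), and Socs3, a feedback inhibitor of cytokine receptors, from 76.5 and 42.3 to 256 and 209 UPM (2.13 ± 0.27). Cxcl10, a chemokine that attracts T cells, went from 5.15 and 2.06 to 303 and 83.9 UPM (6.01 ± 0.83, adjusted p = 0.0335). The GTPase Iigp1 went from 0.417 and 0.863 to 66.9 and 25.1 UPM (6.1 ± 0.72), while Irgm1 was called with a log2 fold change of 4.65 ± 0.44. Stat3, Irf8, Ddx58, Myd88, Socs1, Ifitm1, Ifitm3, Ifi204, Ifi203, Ddx60, Trim30a, Helz2, Nmi, Ifi27, Igtp, Irgm2, Ifi47, Tapbp, Psmb10, Psme1, H2-T23 and H2-Q4 were also called.

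In the E16.5 endothelial gate 15 of 49 pathway genes were called higher, beside 4.4% of all genes, among them Irf1, Irf8, Socs3, Iigp1 and Ifitm3. Macrophage markers there summed to 20.6 and 8.79 UPM in controls against 1493 and 3563 UPM in MOF cKO. Their part in these calls was not tested, and pathway genes were not counted in cells of exactly 1 gate. Cxcl10 had no UMI in the controls and was at 67.9 and 101 UPM in MOF cKO. In E15.5 macrophages 11 of 69 were called higher, beside 0.966% of all genes. Ly6e, a membrane protein that restricts viral entry, went from 171 and 192 to 529 and 549 UPM (1.57 ± 0.10, adjusted p = 0.000339), and Iigp1 from 3 and 5 UMIs to 64 and 81. Cxcl10 in that gate was at 58.5 and 31.8 against 61.6 and 19.3 UPM and was not called. The E15.5 endothelial gate gave 1 of 58 higher, beside 0.077% of all genes (Irgm1, 32.1 and 29.9 against 59.7 and 64.1 UPM). No pathway gene was called of 63 in E15.5 epithelial cells, 69 in E15.5 fibroblasts and 59 in E16.5 macrophages. In these 3 fits 0% of all genes were called in either direction, so the absence of calls is not particular to the pathway. Of the pathway genes tested, 29, 64 and 45 were above 0, in the same order.

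The E17.5 libraries, 1 control and 1 QPC cKO, allow no test, so ratios with at least 20 UMIs in either library are given beside the share of all such genes past 2-fold. Several cell mixtures differed between these libraries. In the control epithelial gate fibroblast markers summed to 19194 UPM beside 13873 UPM of epithelial markers, against 3024 and 17848 UPM in QPC cKO, and 49 of 107 control macrophage-gate cells passed a second gate against 12 of 79. Mast cell markers in the macrophage gate summed to 1853 against 44.1 UPM.

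The 36-member sums at E17.5 were 149 UPM in control and 136 UPM in QPC cKO fibroblasts, and no member of 31 differed by 2-fold there, beside 0.639% of all genes higher and 1.35% lower. In epithelial cells the sum was 152 against 75.4 UPM. In cells of exactly 1 gate it was 111 against 64.8 UPM. No cell can pass both the epithelial and the fibroblast gate, so these cells still include those with fibroblast markers. In the whole gate 10 of 36 members were at least 2-fold lower and none higher, beside 9.07% of all genes lower and 1.09% higher. Isg15 was at 8.04 against 1.33 UPM, H2-K1 at 39.6 against 13.2 UPM and Bst2 at 17.7 against 7.13 UPM. In endothelial cells the sum was 964 against 1237 UPM, with 6 of 21 members higher and 1 (Trim25) lower, beside 5.11% and 2.26% of all genes. No member was past 2-fold higher with a minimum of 50 UMIs, and the log2 ratio of the 39-member sums went from 0.070 to -0.36 under 5% mitochondrial UMIs. Ifit1 led the higher ones, at 5.34 against 26.4 UPM, and the intervals of Usp18 and Cmpk2 overlapped.

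Macrophages at E17.5 split the members. Of 36 members 7 were at least 2-fold lower in QPC cKO and 1 higher, beside 6.49% and 4.29% of all genes, and the 36-member sum was 2603 against 2024 UPM. The lower ones were Rsad2 (149 against 8.59 UPM), Oasl1 (70.8 against 7.45 UPM), Ifit1 (58.7 against 11.5 UPM), Cmpk2, Ifit2, Ifih1 and Isg15. Isg15 was at 225 UPM (95% counting interval 207 to 245) in the control and 54.4 UPM (44.0 to 66.5) in QPC cKO. Irf7 (32.3 against 40.7 UPM), Oasl2 (23.5 against 35.5 UPM) and B2m stayed within 2-fold, and Dhx58 was the higher one (9.22 against 21.2 UPM). Ifnb1 was detected in the control library, with 258 UMIs in 25 of 5353 cells, of which 250 were in 17 macrophage-gate cells and 90 in 8 of 58 cells that passed only that gate. It had no UMI in QPC cKO, where 79 cells passed the macrophage gate, which allows a share of such cells with a UMI of up to 3.8%. The chemokine Cxcl10 was at 1457 against 214 UPM in the macrophage gate.

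**Figure D5:**
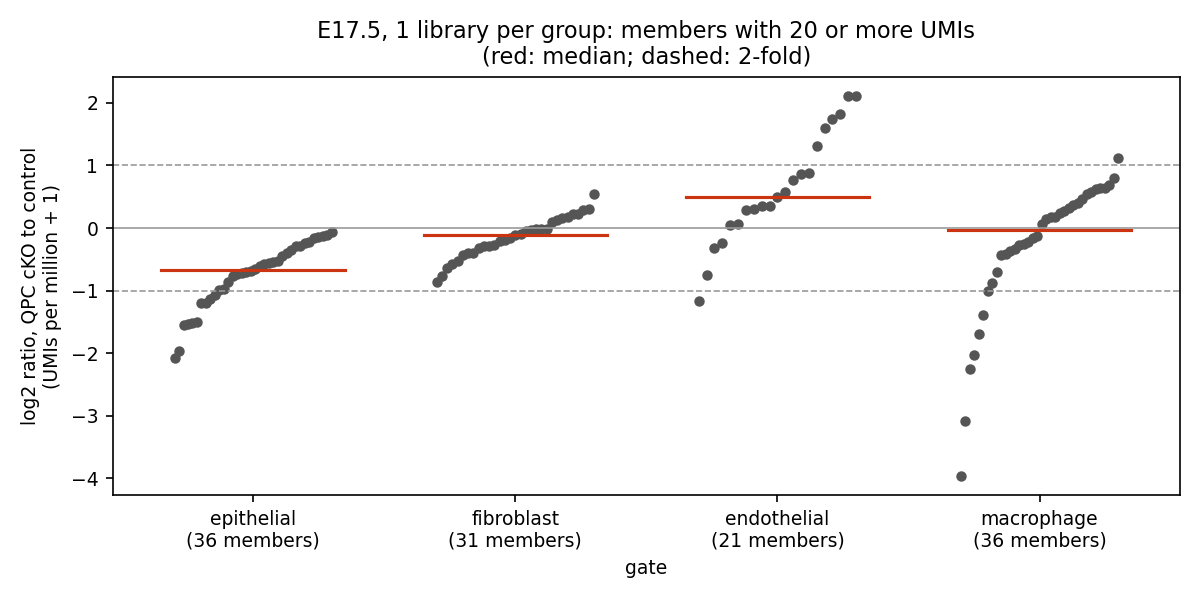
Log2 ratio of QPC cKO over control at E17.5 for members with at least 20 UMIs in either library, 1 point per member in each gate, with red lines at the medians and dashed lines at 2-fold. The fibroblast points all lie within 2-fold, and the lowest macrophage points are Rsad2, Oasl1, Ifit1 and Isg15.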

How the data were processed

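Back-skin cells were profiled with 3' single-cell RNA-seq in 10 libraries. The authors aligned reads and made the deposited counts, whole UMIs per gene and cell barcode, with Cell Ranger on mm10 (versions 1.3.1 and 6.1.2 stand in the submitters' processing notes, with no role). Cells with more than 1000 and fewer than 6000 genes and under 10% mitochondrial UMIs were kept. Gates took at least 10 Krt5 plus Krt14 UMIs (epithelial), at least 30 Col1a1 plus Col3a1 UMIs without the former (fibroblast), or a UMI of at least 2 of the 3 marker genes (endothelial, macrophage), so a cell could pass 2 gates, and doublets were not removed. UMIs were summed per library and gate. All genes were tested with edgeR 4.0.16 (limma 3.58.1, R 4.3.3), by the quasi-likelihood test after filterByExpr and TMM scaling, and a call means a Benjamini-Hochberg adjusted p below 0.05. The filter asks for enough UMIs in as many libraries as the smaller group holds. A member near 0 in controls could thus enter a test through MOF cKO alone. A fold change is given as log2 ± SE. Differences between gates took the library as a block, and differences between stages were tested as an interaction over genes of both gene tables. The study compared cells, not summed counts, so no test was taken from it. The script was tested on simulated data. Sums over members have no test. At E17.5, with 1 library per group, ratios of UPM plus 1 are given without a test. Intervals (exact, 95%) and floors (3 counts over a group) cover counting error only. The members and lists were chosen with earlier results of these data known. Values per library were given by rule for up to 12 called members of a comparison by size of change and for the highest member of each member list. Called pathway genes and detected ligands and receptors were named only in part. Alternatives were DESeq2 1.42.0, library-size scaling, no filter on low counts, leaving out each library, cells of exactly 1 gate, under 5% mitochondrial UMIs, another gate rule, a replicate block and, at E17.5, another pseudocount, another minimum and TMM factors. Tables were made with Python 3.11.15, pandas 2.3.3, numpy 2.4.6 and scipy 1.17.1. Ifit, Oas, Gbp, Ifi27l2 and H2 genes have close relatives that may share reads, so their split between copies is uncertain, and the strand setting of the counting is not given in the sources used here. Some pathway genes, and the pathway count of the E16.5 epithelial gate, are not reported here.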

Additional observations from a re-analysis of the deposited data

Results flagged for a closer look

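The genotype effect differed between the stages for 13 member and gate pairs, in a test of the interaction itself, and was larger at E16.5 in each, beside 0.423% of all genes in fibroblasts and 0.614% in endothelial cells. No fibroblast member passed without E15.5 MOF cKO 6 and no endothelial member without E16.5 control 2. In fibroblasts the difference (E16.5 minus E15.5, log2) was 4.20 for Ifi27l2a, 3.64 for Xaf1, 3.0 for Gbp2, 2.55 for Lgals3bp, 2.19 for H2-D1 and 1.41 for B2m. In endothelial cells it was 4.10 for Stat2 (from 0 and 2 control UMIs at E16.5), 3.57 for Rsad2, 3.56 for Irf7, 3.28 for H2-K1, 2.39 for Psmb8, 2.08 for B2m and 1.93 for H2-D1. The stages also differ in chemistry and in the mosaic epithelium of 1 E15.5 library, which cannot be told apart from stage here.

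At E16.5 the genotype effect differed between epithelial cells and fibroblasts of the same libraries for 4 members, beside 2.72% of all genes, and none of the 4 passed without MOF cKO 1. The epithelial effect minus the fibroblast effect (log2) was -5.26 for Isg15, -3.09 for Irf7, -2.37 for Tap1 and -1.94 for H2-D1. Isg15 and Irf7 had too few UMIs for a test in the epithelial gate alone. The MOF cKO epithelial gate held 30 and 39 cells, and its S100a8 and S100a9 levels stood apart from the controls. The part of these in the differences was not tested.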

How the results depend on the processing

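The called values of single members in the genotype comparisons, in the stage differences and in the E16.5 epithelial against fibroblast effect kept their sign under every alternative run, 28 of 28 in E16.5 fibroblasts, 19 of 19 in E16.5 endothelial cells and 13 of 13 in E15.5 macrophages among them. Of the levels against fibroblasts 2 reversed, both in macrophages without control 2, namely Rsad2 at E15.5 to -0.51 (2.71 without control 3) and Usp18 at E16.5 to -3.31 (5.26 without control 1), and 34 of 35 and 30 of 31 kept their sign there. Scaling by library size alone moved the median of all genes by -0.61 (log2) in E16.5 epithelial cells, -0.17 in endothelial cells and -0.12 in fibroblasts, and by -0.12 in E15.5 epithelial cells. Under it the calls over all genes split into 346 higher and 491 lower in E16.5 fibroblasts (305 and 278 with TMM), 263 and 549 in E16.5 epithelial cells (465 and 113) and 16 and 9 in E15.5 endothelial cells (8 and 2), while the members called in E16.5 fibroblasts were 30, all higher. It gave 1 called member in E16.5 macrophages (0.0694% of all genes), 1 higher in E16.5 epithelial cells against fibroblasts (12.2%), and 11 with a lower epithelial than fibroblast effect (8.37%).

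The share of all genes called the same way in the same fit follows each count at E15.5 and E16.5. With no filter on low counts, where 37 to 39 members were tested, 8 were called in E15.5 fibroblasts (0.61%), 2 in E15.5 endothelial cells (0.28%), 29 in E15.5 macrophages (2.5%), 4 in E16.5 epithelial cells (5.8%) and 9 in E16.5 macrophages (1.78%), and for the stage difference 1 in epithelial cells (1.94%), 11 in fibroblasts (0.961%), 11 in endothelial cells (1.9%) and 1 in macrophages (1.43%). DESeq2 called 5 in E15.5 fibroblasts (1.89%), 0 in E15.5 endothelial cells (0.244%), 1 in E16.5 epithelial cells (7.1%), 11 in E16.5 endothelial cells (2.46%) and 5 in E16.5 macrophages (1.62%), and for the stage difference 2 in epithelial cells (4.56%), 16 in fibroblasts (2.97%) and 1 in macrophages (0.507%). In cells of exactly 1 gate the counts were 0 in E15.5 endothelial cells (0.176%), 7 in E16.5 endothelial cells (0.836%) and 6 in E16.5 macrophages (1.64%), and 3 for the endothelial stage difference (0.671%). There 1 member was higher (12.5%) and 5 lower (17%) in E16.5 epithelial cells against fibroblasts, and the genotype effect was lower than in fibroblasts for 8 in epithelial cells (4.01%), 2 in endothelial cells (0.039%) and 8 in macrophages (0.332%). Under 5% mitochondrial UMIs the counts were 0 in E15.5 endothelial cells (0.101%), 4 in E15.5 macrophages (0.388%) and 1 in E16.5 macrophages (0.0284%). Gating by 2 summed UMIs gave 0 in E15.5 (0%) and 29 in E16.5 endothelial cells (4.97%). At E17.5 the members past 2-fold changed to 1 lower in fibroblasts with a pseudocount of 0.5. With a minimum of 50 UMIs they changed to 0 higher in endothelial cells and macrophages. In cells of 1 gate they changed to 5 lower in epithelial cells, 0 lower in endothelial cells and 2 higher in macrophages. The share of all genes past 2-fold was not counted under these E17.5 alternatives, so these counts have no background. The cause of these moves was not tested.

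Summed over all 39 members, the log2 ratio of MOF cKO to control was -0.013, 0.60 and 0.27 in E15.5 epithelial cells, fibroblasts and endothelial cells and 2.38 in E16.5 fibroblasts. Without B2m, H2-K1 and H2-D1 these became 0.10, 0.94, 0.47 and 3.35. The E17.5 ratios in epithelial cells, fibroblasts, endothelial cells and macrophages became -1.01, -0.13, 0.36 and -0.36, from -0.85, -0.25, 0.070 and -0.23. In cells of 1 gate the ratio was -0.11 in E15.5 epithelial and 1.36 in E16.5 endothelial cells, and -0.67 and 0.27 in E17.5 epithelial and endothelial cells. As a plain ratio, the E16.5 epithelial sum of all 39 members went from 1.3 to 0.939 there. Under 5% mitochondrial UMIs the log2 ratio was 0.074 in E15.5 epithelial, -0.55 in E16.5 epithelial and -0.36 in E17.5 endothelial cells.

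Each fit without a library has a group of 1, assumed to vary like the other groups, so its calls are no measure of stability. Leaving out 1 library at a time, the log2 ratio of the sums ran from 0.39 to 0.79 in E15.5 fibroblasts, 0.17 to 0.37 in E15.5 endothelial cells and 0.80 to 0.91 in E15.5 macrophages, and from -0.64 to 0.97, 1.68 to 2.19 and 0.96 to 1.37 in E16.5 epithelial cells, endothelial cells and macrophages. Called members, with the range over the same fits of the share of all genes, ran from 0 to 6 higher (0% to 20.8%) and 0 to 3 lower (0% to 24.7%) in E15.5 epithelial cells, 0 to 11 in E15.5 fibroblasts (0% to 0.431%), 0 to 1 in E15.5 endothelial cells (0% to 0.262%), 2 (without control 3) to 20 in E15.5 macrophages (0.139% to 1.4%), 0 to 2 in E16.5 epithelial cells (0.329% to 8.36%) and 0 (without control 2) to 23 in E16.5 fibroblasts (0% to 1.32%). For the stage difference they ran from 0 (without E15.5 MOF cKO 6) to 7 in fibroblasts (0% to 2.02%) and 0 (without E16.5 control 2) to 6 in endothelial cells (0.0174% to 0.691%). For levels against fibroblasts at E15.5 they ran from 2 to 7 higher (12% to 34.1%) and 7 to 17 lower (16.6% to 36.4%) in epithelial cells, 16 to 26 higher (9.66% to 22.1%) and 1 to 3 lower (9.07% to 24.2%) in endothelial cells, and 0 to 1 lower in macrophages (13% to 28.7%). At E16.5 they ran from 1 to 2 higher (6.36% to 12.5%) and 0 to 4 lower (4.33% to 14.3%) in epithelial cells, 8 to 16 higher in endothelial cells (3.03% to 7.86%) and 20 to 31 higher in macrophages (10.9% to 16.7%). For the genotype effect against fibroblasts at E15.5 they ran from 0 to 1 higher (0% to 16.3%) and 0 to 12 lower (0% to 14.9%) in epithelial cells, 0 to 3 lower in endothelial cells (0% to 0.224%), and 0 to 2 higher (0% to 0.916%) and 0 to 4 lower (0% to 0.642%) in macrophages. At E16.5 lower effects ran from 0 (without MOF cKO 1) to 6 in epithelial cells (0.0583% to 3.99%), 0 to 1 in endothelial cells (0% to 0.0181%) and 0 to 7 in macrophages (0% to 1.01%).

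The replicate numbers of the E16.5 labels gave no sign of pairing, with correlations of same-numbered deviations of -0.016 in epithelial cells, -0.022 in fibroblasts, -0.061 in endothelial cells and 0.060 in macrophages. With the replicate block 28 members were called in fibroblasts, 18 in endothelial cells, and 0 in epithelial cells and macrophages. The share of all genes in these fits is not given here. Without the block 2.43% of all genes were higher in fibroblasts, 4.4% in endothelial cells, 4.68% in epithelial cells and 0% in macrophages. Depth limits the gates in which members had too few UMIs to be tested, among them the E16.5 epithelial gate with 28 such members and the E16.5 endothelial gate with 13. With 2 libraries per group every p rests on little spread, and 1 library decided several counts above.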

Other observations

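In the E16.5 MOF cKO fibroblasts MOF cKO 1 had the higher level for 34 of 39 members and MOF cKO 2 for 5. At E15.5 MOF cKO 5 had the higher level for 36 members in fibroblasts and 29 in macrophages. In E15.5 epithelial cells MOF cKO 6 had the higher level for 28 and MOF cKO 5 for 10. The same orders over all genes are not given here. Hemoglobin markers in the fibroblast gate summed to 7319 and 22279 UPM in E16.5 controls and 13529 and 5410 UPM in MOF cKO.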
